A study of Arabidopsis thaliana with 9 samples.

Results

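The mitochondrial genome of Arabidopsis thaliana was followed through 48 probe sets of the ATH1 array, out of 22810 on the array. The members are all probe sets, with any suffix, in the ID number blocks that the array design gives to this genome. There are 31 in the first block and 17 in the second. The rule uses ID numbers and no measured value, but it was set with earlier results of these data known. A probe set is a group of short oligonucleotides that together report on a transcript. The numbers left out between both blocks belong to 11 probe sets, of which 9 are annotated to chloroplast genes alone and 2 to no gene.

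Whole seedlings of the Columbia-0 ecotype were profiled in 3 groups of 3 arrays, all collected at an age of 8 days. Control seedlings received no agent (agent "none"). Seedlings of the SNP group spent 5 days, from day 3, in receiver dishes beside an open donor dish of 100 uM sodium nitroprusside, a compound that releases nitric oxide. In the cPTIO group the same 5 days were spent with cPTIO, a carboxyphenyl tetramethylimidazoline oxyl oxide that scavenges nitric oxide, as 2 ml of a 1 mM solution in the receiver dishes themselves. Both treatments were held in sealed outer dishes, and it is not stated in the labels whether the controls were sealed too. All groups share the wild-type background. The labels call the samples biological replicates but put 3 receiver dishes in a single outer dish per treatment, so the p-values measure the spread between these samples and may not cover separate exposures. The agents were given by different routes and at different doses, and the series sets the nitric oxide donor against its removal.

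Plant mitochondria keep a small genome that encodes some subunits of the respiratory chain complexes, of the ATP synthase and of the mitochondrial ribosome, together with proteins that attach haem to cytochrome c. The other subunits of these complexes come from the nucleus, and many mitochondrial messages are spliced and edited before translation. Nitric oxide is known to bind reversibly to the haem and copper site of cytochrome c oxidase, the terminal complex of the chain. Plant mitochondrial messages mostly lack stable poly(A) tails, and the standard Affymetrix labelling named in the labels normally primes from such tails. RNA of whole seedlings was measured, so fewer mitochondria or cells and less RNA in each cannot be told apart.

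Of the 48 probe sets, 12 are annotated to a single mitochondrial gene. These are nad4, nad4L, nad6, nad7 and nad9 for complex I, cox2 for complex IV, ccmB, ccmFC, ccmFN1 and ccmFN2 for cytochrome c maturation, the maturase gene matR and the protein translocase gene mttB. Probe set 244944_s_at lists both rps3 and rpl16, which encode ribosomal proteins. A further 5 are annotated to chromosome 2 loci, and the remaining 30 carry no annotated gene and are given by ID. Of the 32 distinct protein-coding gene symbols of the RefSeq mitochondrial genome, 14 have a member. The suffix _s_at, which marks sets that can match several transcripts, is carried by 14 members, and the other 34 end in _at.

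Most members gave a low signal. On the deposited log2 scale the median of the members' means was 3.23, against 4.54 over all 22746 plant probe sets, and 38 of the 48 lay at or below that plant median. Only 5 members exceeded the median of the array on all 9 arrays, namely nad4, 244944_s_at, ccmFN1, AT2G07751 and ccmFC, while 35 did so on none. Among the 77 chloroplast genome probe sets 69 lay above the plant median. No detection calls were used, so members near or below the array medians, which ran from 4.47 to 4.60, are not shown to lie above background. Differences of those members are given on the log2 scale alone. Over all plant probe sets cPTIO replicate 3 stood apart, with an array weight of 0.296 from limma against 0.644 to 1.84 for the other 8 arrays.

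Few members differed between groups. With limma on all plant probe sets and Benjamini-Hochberg adjustment, where an adjusted p under 0.05 counts as a call, 1 member of 48 was called in SNP against control, and it was higher. The background was 6.19% of all plant probe sets called in that comparison, with 2.57% higher and 3.62% lower. In cPTIO against control 1 member was called, also higher, against a background of 6.59%, with 2.32% higher and 4.27% lower. Between SNP and cPTIO limma called 0 members, against a background of 3.26%, with 1.68% higher and 1.59% lower. At an unadjusted p under 0.05 the members numbered 4, 10 and 10 in these comparisons, and the background was 20.8%, 23.8% and 18.2%. Among plant probe sets at or below the median level 3.05%, 2.37% and 1.14% were called in the 3 comparisons, and among the 38 members there the counts were 0, 1 and 0. Above the median level 9.34%, 10.8% and 5.38% were called, and among the 10 members there 1, 0 and 0. The counts are near these shares, so they are not a result about the members. Without cPTIO replicate 3 the members called were again 1, 1 and 0, against backgrounds of 11.2%, 9.29% and 5.77%. The 3 control arrays serve both comparisons with control. The moderated F-test over the 3 groups called 3 members, nad7, nad4 and ccmFC, against a background of 9.79%. At an unadjusted F p under 0.05 the members numbered 9, against 27.1%.

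**Figure D1:**
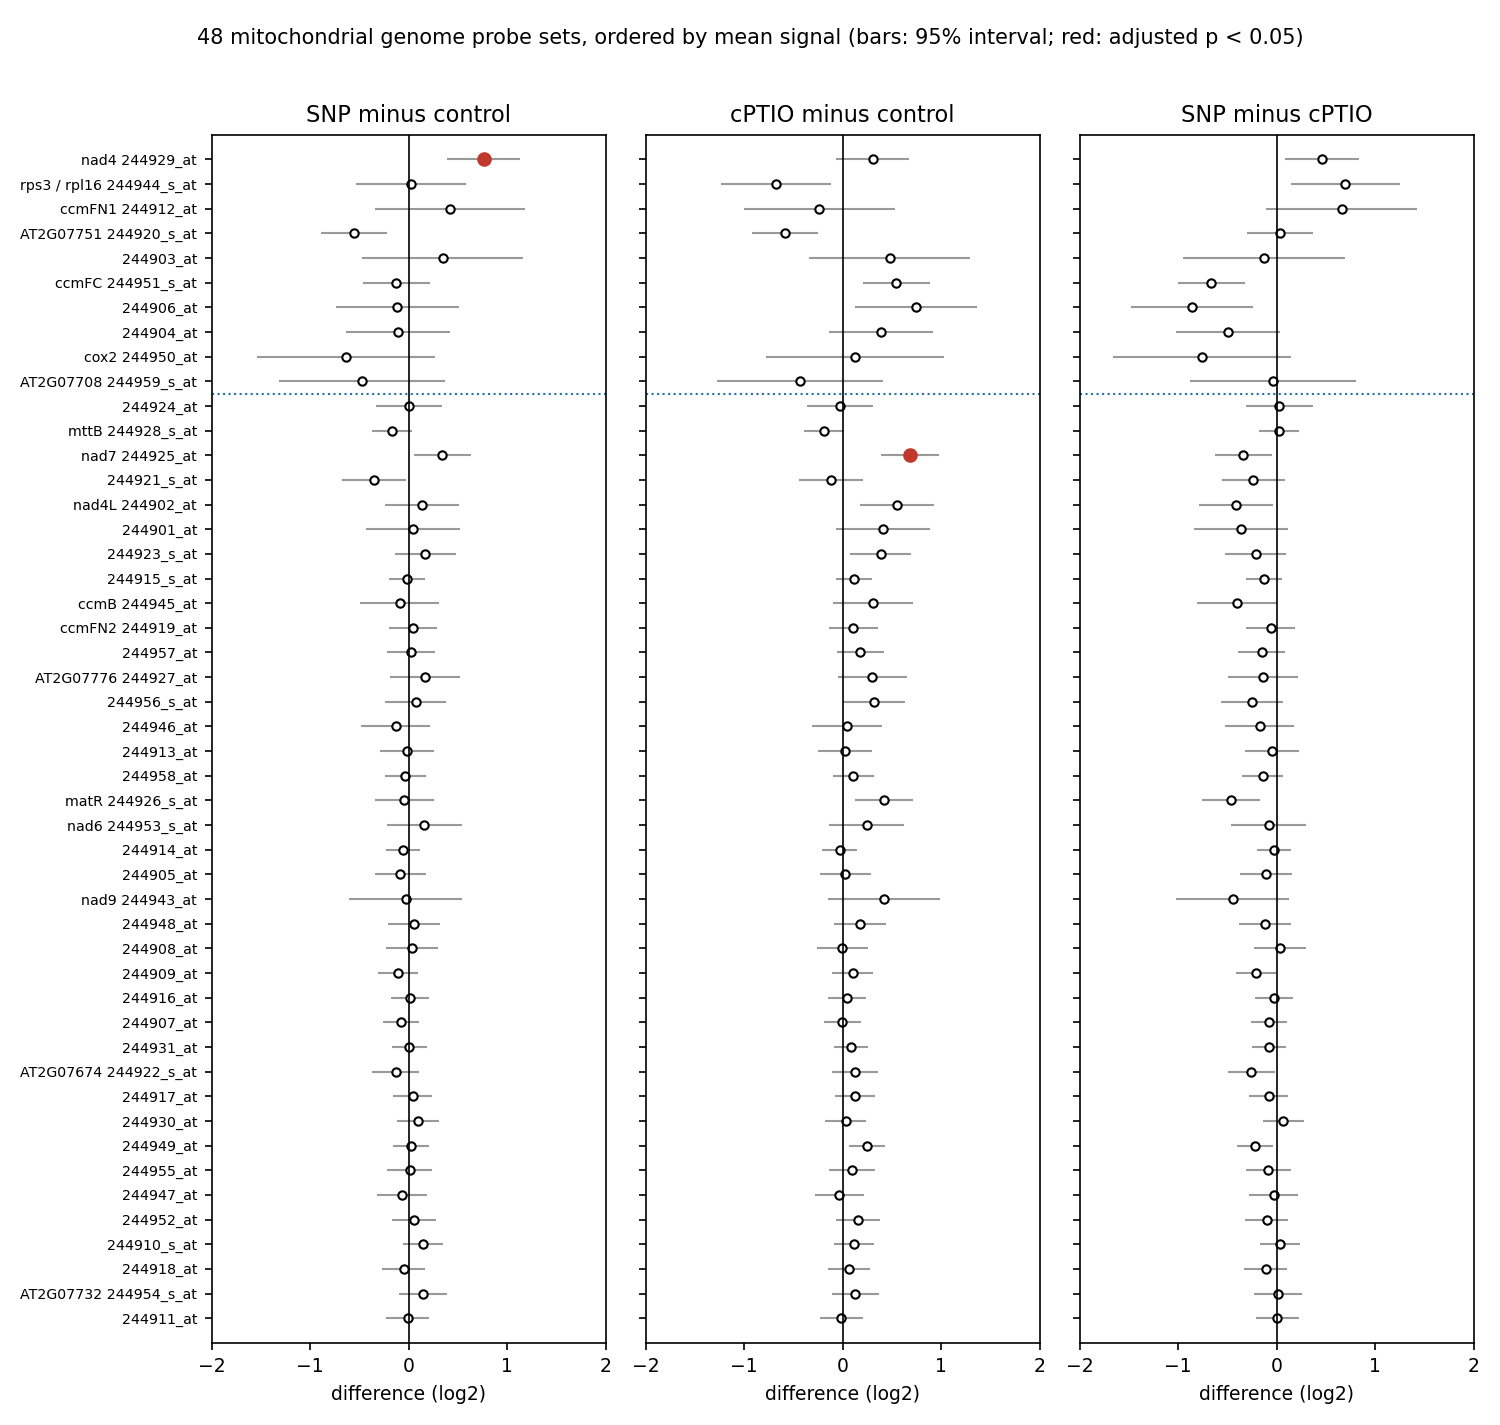
Log2 difference of each of the 48 mitochondrial genome probe sets in the 3 comparisons (x axes, log2), ordered by mean signal on the y axis. Points are limma's estimates from 3 arrays per group, bars are 95% intervals and red marks an adjusted p under 0.05. The red points are nad4 in SNP against control, at 0.76, and nad7 in cPTIO against control, at 0.68.

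The 5 complex I members encode subunits of the NADH dehydrogenase at the entry of the respiratory chain. Of these, nad4, nad4L and nad6 belong to its membrane arm, and nad7 and nad9 to the arm that reaches into the matrix. The member called with SNP was nad4, and the member called with cPTIO was nad7. In all 5 the cPTIO mean lay above the control mean, by 0.24 to 0.68 on the log2 scale, and 4 of the 5 had an SNP mean above the control mean. Over all 48 members, 36 were above control with cPTIO and 25 with SNP. Among plant probe sets at or below the median level the shares were 61.8% and 51.2%.

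The nad4 probe set read 6.83, 6.99 and 7.00 on the control arrays, 7.34, 7.81 and 7.96 on the SNP arrays and 7.42, 7.13 and 7.17 on the cPTIO arrays, as log2 levels. Every treated array was above every control array, while the SNP and cPTIO arrays overlapped. The nad4 level was 1.70-fold higher with SNP than in control, a log2 difference of 0.76 ± 0.16 (SE, n = 3 per group; 95% interval 0.39 to 1.13; limma adjusted p = 0.0320). For cPTIO against control the nad4 difference was 0.30 on the log2 scale (95% interval -0.07 to 0.68; limma adjusted p = 0.301), and SNP minus cPTIO was 0.46 (95% interval 0.09 to 0.83; limma adjusted p = 0.181). SNP and cPTIO were not shown to differ from each other for nad4. The SNP call was lost when any control array was left out (limma adjusted p = 0.0740 to 0.0992), and also without SNP replicate 2 (0.119) or replicate 3 (0.0798).

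The nad7 probe set read 3.85, 3.79 and 4.07 in control, 4.19, 4.32 and 4.23 with SNP and 4.49, 4.42 and 4.84 with cPTIO. The 3 groups did not overlap, in the order control, SNP, cPTIO, and the log2 level lay above the median of its array only on cPTIO replicates 1 and 3. For nad7 the cPTIO mean exceeded the control mean by 0.68 ± 0.13 on the log2 scale (SE, n = 3 per group; 95% interval 0.39 to 0.97; limma adjusted p = 0.0230). With SNP the difference from control was 0.34 (95% interval 0.05 to 0.63; limma adjusted p = 0.166), and SNP minus cPTIO was -0.34 (limma adjusted p = 0.204), so the middle group was not separated from either neighbour by the adjusted test. The nad7 call was lost without control replicate 1 (limma adjusted p = 0.0620), control replicate 2 (0.0969) or cPTIO replicate 1 (0.0560), and when only the control and cPTIO arrays were fitted (0.0780).

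Among the other complex I members, nad4L read 3.50, 3.76 and 3.70 in control, 3.76, 3.82 and 3.79 with SNP and 4.50, 3.82 and 4.29 with cPTIO. Its cPTIO arrays were all above its control arrays, with a log2 difference of 0.55 that missed the threshold (limma adjusted p = 0.0854). The nad9 difference for cPTIO against control was 0.42, and replicate 3, at 4.03, stood above the other cPTIO arrays at 3.09 and 2.96. For nad6 the corresponding log2 difference was 0.24, with overlapping groups.

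The cox2 gene encodes the subunit of cytochrome c oxidase that receives electrons from cytochrome c. Its probe set read 3.91, 5.28 and 5.38 in control, 4.11, 4.27 and 4.30 with SNP and 5.09, 4.43 and 5.44 with cPTIO. All 3 SNP arrays lay below all 3 cPTIO arrays, whereas control replicate 1 was lower than every other array. The cox2 difference for SNP minus control was -0.63 on the log2 scale (95% interval -1.54 to 0.27; limma adjusted p = 0.425), the lowest of the 48 members in that comparison. Without control replicate 1 it was -1.11 (limma adjusted p = 0.0688). SNP minus cPTIO was -0.76 for cox2 (95% interval -1.67 to 0.14; limma adjusted p = 0.359), an interval that also holds 0.

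The 4 cytochrome c maturation members encode parts of the machinery that carries and joins haem to cytochromes of the c type. In Arabidopsis the ccmF function, which joins the haem, is split over the genes ccmFN1, ccmFN2 and ccmFC, and ccmB encodes a membrane component of a transporter. None of the 4 was called in a comparison of 2 groups. The ccmFC probe set read 4.95, 4.97 and 5.00 in control, 4.84, 4.70 and 5.00 with SNP and 5.84, 5.25 and 5.46 with cPTIO. Its cPTIO arrays were above all 6 others, and the SNP and control arrays overlapped. For ccmFC the log2 difference was 0.54 ± 0.15 for cPTIO against control (SE, n = 3 per group; limma adjusted p = 0.0691) and -0.67 ± 0.15 for SNP minus cPTIO (limma adjusted p = 0.0523), while SNP against control was -0.12 (limma adjusted p = 0.721). The moderated F-test of limma over the 3 groups called ccmFC (limma adjusted p = 0.0457). Without cPTIO replicate 2 both cPTIO differences of ccmFC passed the threshold, at 0.68 (limma adjusted p = 0.0320) and -0.80 (0.0338). That replicate was the lowest cPTIO array for ccmFC. With any other single array left out neither passed (limma adjusted p up to 0.190 and 0.198). The ccmB differences had the signs of those of ccmFC, at -0.09 with SNP and 0.31 with cPTIO against control and -0.40 for SNP minus cPTIO. For ccmFN2 the differences from control were 0.05 with SNP and 0.11 with cPTIO. Those of ccmFN1 had the opposite signs to ccmFC, at 0.42 and -0.24.

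**Figure D2:**
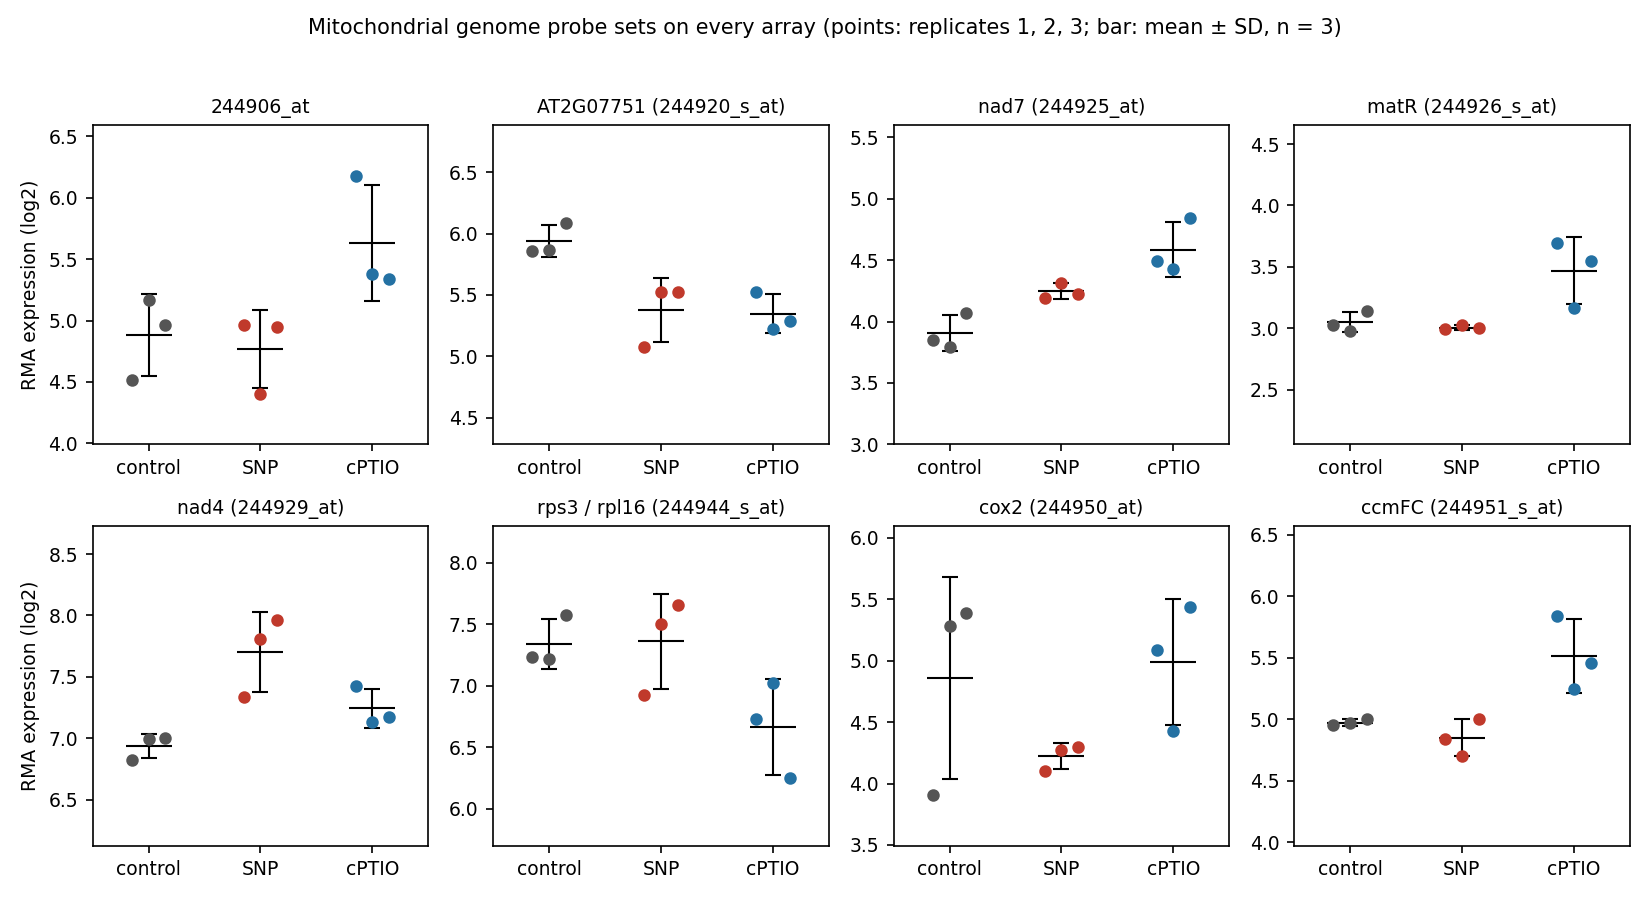
Log2 level of 8 mitochondrial genome probe sets on every array (y axis, log2; x axis, group), with replicates 1, 2 and 3 as points and the group mean ± SD (n = 3) as bars. The nad4 points of both treatments lie above all control points, and the ccmFC and matR points of cPTIO lie above those of SNP and control.

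Probe set 244944_s_at, whose annotation lists rps3 of the small and rpl16 of the large subunit of the mitochondrial ribosome, cannot separate these genes. It read 7.23, 7.22 and 7.58 in control, 6.93, 7.50 and 7.66 with SNP and 6.73, 7.02 and 6.25 with cPTIO. Its cPTIO arrays were all below its control arrays but overlapped the SNP arrays. The log2 difference of 244944_s_at for cPTIO against control was -0.68 (95% interval -1.23 to -0.12; limma adjusted p = 0.137), the lowest of the 48 members in that comparison. SNP minus cPTIO was 0.70 (limma adjusted p = 0.177), the highest of the members, and SNP against control was 0.02 (limma adjusted p = 0.977). Without cPTIO replicate 3 the difference of cPTIO from control became -0.46.

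The matR gene encodes a maturase-related protein that acts in the splicing of mitochondrial introns and lies within an intron of nad1. Its log2 levels were 3.03, 2.98 and 3.14 in control, 2.99, 3.03 and 3.00 with SNP and 3.69, 3.17 and 3.55 with cPTIO. The cPTIO arrays were above all others, at levels below the array medians. For matR the difference was 0.42 for cPTIO against control (95% interval 0.12 to 0.72; limma adjusted p = 0.0956) and -0.46 for SNP minus cPTIO (limma adjusted p = 0.104). Without cPTIO replicate 2, the lowest cPTIO array for matR, both passed, at 0.57 (limma adjusted p = 0.0163) and -0.62 (0.0227). With any other single array left out neither passed (limma adjusted p up to 0.258 and 0.271). The mttB probe set, for a membrane protein of the twin-arginine translocation type, read 4.39, 4.47 and 4.42 in control and was lower on all 6 treated arrays, from 4.08 to 4.36. Its differences of -0.17 with SNP and -0.19 with cPTIO were small, and neither passed (limma adjusted p = 0.326 and 0.230).

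Chromosome 2 of Arabidopsis carries a large insertion of mitochondrial DNA, and 5 members are annotated to loci on it. Of these loci 4 lie between the outermost of 11 chromosome 2 loci that share other probe sets with mitochondrial genes. Transcripts of a mitochondrial gene and of a nuclear copy could not be told apart on these probe sets. Whether the other members also match nuclear copies was not examined. AT2G07751 read 5.86, 5.87 and 6.09 in control, 5.08, 5.53 and 5.53 with SNP and 5.53, 5.22 and 5.29 with cPTIO. Both treatments lay below all control arrays and overlapped each other. For AT2G07751 the log2 difference was -0.56 ± 0.15 with SNP (SE, n = 3 per group; limma adjusted p = 0.0633) and -0.59 ± 0.15 with cPTIO (limma adjusted p = 0.0512), just outside the threshold in both. SNP minus cPTIO was 0.03 for AT2G07751, with a 95% interval from -0.30 to 0.37. With differences of -0.47 and -0.43 AT2G07708 had the next lowest values of the group, but its control arrays ran from 4.01 to 5.59 and overlapped both treatments. AT2G07674, AT2G07776 and AT2G07732 had log2 levels of 2.48 to 3.82 and differences from control between -0.13 and 0.30.

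None of the 30 members without an annotated gene was called in any comparison or by the F-test. Their log2 differences ran from -0.36 to 0.35 with SNP against control, from -0.12 to 0.75 with cPTIO against control and from -0.86 to 0.07 for SNP minus cPTIO. Probe set 244906_at gave the highest value with cPTIO against control and the lowest for SNP minus cPTIO. It read 4.52, 5.17 and 4.97 in control, 4.96, 4.40 and 4.95 with SNP and 6.18, 5.38 and 5.34 with cPTIO, so its cPTIO arrays were above all others. Neither its difference of 0.75 from control (limma adjusted p = 0.139) nor that of -0.86 for SNP minus cPTIO (limma adjusted p = 0.140) passed. The lowest of the 30 with SNP was 244921_s_at at -0.36, and its groups overlapped.

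Groups whose arrays did not overlap were also counted without a test. In SNP against control 3 members were higher (nad4L, nad7 and nad4) and 3 lower (AT2G07751, AT2G07674 and mttB), against backgrounds of 14% and 15.9% of plant probe sets, or 29.9% in either direction. In cPTIO against control 10 were higher and 3 lower (AT2G07751, mttB and 244944_s_at), against 13% and 13.5%, or 26.4%. Between SNP and cPTIO 0 members were higher and 9 lower with SNP, against 10.1% and 11.1%, or 21.2%. These 9 were nad7, matR, cox2, ccmFC, AT2G07674, 244904_at, 244906_at, 244949_at and 244957_at.

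Most members differed little in signal between groups. For SNP against control 40 of 48 differed by under 0.2 on the log2 scale, for cPTIO against control 28, and for SNP against cPTIO 29. Their median absolute differences were 0.081, 0.143 and 0.130. Over plant probe sets at or below the median level these were 0.085, 0.100 and 0.090, so small differences were not particular to the members. Since 38 of the 48 are dim and not shown to lie above background, small differences in signal do not show that their transcripts were level.

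Taken over all 48 members, the median difference was 0.00 for SNP against control, 0.12 for cPTIO against control and -0.11 for SNP minus cPTIO. The medians over all plant probe sets were 0.00, 0.02 and -0.02. A positive difference was found for 25, 36 and 11 of the 48 members, or 52.1%, 75% and 22.9%. Over all plant probe sets the positive shares were 50.4%, 54.4% and 46.2%, and at or below the median level 51.2%, 61.8% and 37.4%. Members share arrays and are not replicates, so these counts carry no test. Among the 11373 plant probe sets at or below the median level, the same medians were 0.00, 0.04 and -0.04, and 7023 were positive with cPTIO. When each array was centred on the median of its plant probe sets, the split of higher to lower members became 32 to 16 with SNP and 42 to 6 with cPTIO, from 25 to 23 and 36 to 12. Centring adds the same amount to the difference of every plant probe set. The array medians averaged 4.56 in control, 4.50 with SNP and 4.50 with cPTIO, so this amount was positive against control. The split over all plant probe sets after centring is not given, so these splits are not read as a result about the members.

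The cPTIO mean was the highest of the 3 groups for 32 of the 48 members. This was not counted over all plant probe sets. Among plant probe sets at or below the median level 61.8% were above control with cPTIO, and 37.4% were higher with SNP than with cPTIO. By single arrays, cPTIO replicate 1 held the highest of the 9 values for 22 of the 48, cPTIO replicate 3 for 8 and cPTIO replicate 2 for 2. Over all 22746 plant probe sets cPTIO replicate 1 held the highest value for 3961, or 17.4%, and among those at or below the median level for 2292, or 20.2%. The median deviation of the members from their own mean over the 9 arrays was 0.17 on cPTIO replicate 1, -0.03 on replicate 2 and 0.02 on replicate 3. Without replicate 1 the median difference of cPTIO from control was 0.08, with 35 members positive, and that of SNP minus cPTIO was -0.06. These deviations spanned a wider range within the cPTIO group than the median differences between groups. The SD of the member median level between arrays of a group was 0.0837. It describes single arrays and not a difference of group means, so it gives no test of the median differences.

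**Figure D3:**
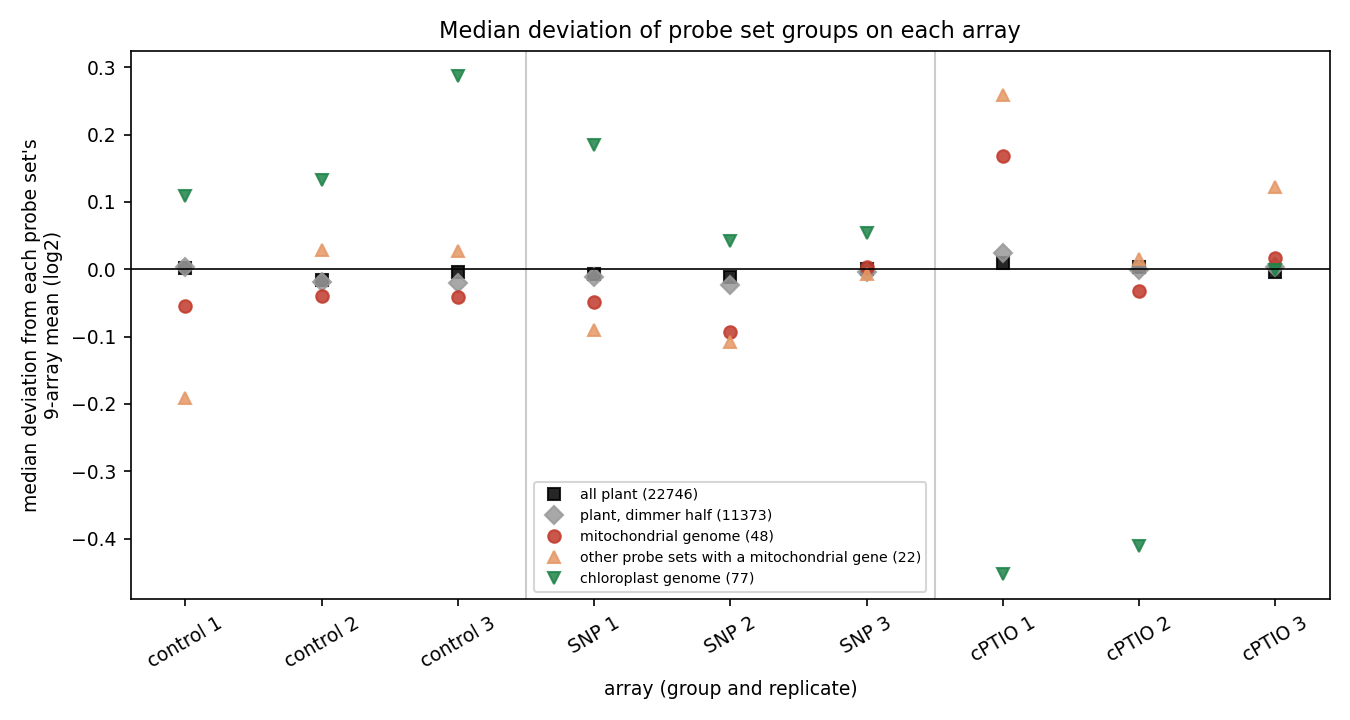
Median deviation of probe set groups from each set's mean over the 9 arrays (y axis, log2) on every array (x axis, group and replicate). The mitochondrial genome probe sets are highest on cPTIO replicate 1, at 0.17, and lowest on SNP replicate 2, at -0.09.

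Members that neighbour each other on the genome did not all have the same sign. In the RefSeq order of protein-coding genes, cox2, ccmB, rps3, rpl16 and nad9 follow each other, and with cPTIO against control their probe sets had log2 differences of 0.13, 0.31, -0.68 (244944_s_at for rps3 and rpl16) and 0.42. The neighbours ccmFC, nad4 and mttB had 0.54, 0.30 and -0.19 with cPTIO and -0.12, 0.76 and -0.17 with SNP. Of these values only that of nad4 with SNP passed the test.

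A further 22 probe sets outside the ID blocks carry a mitochondrial gene in the annotation, 11 with that gene alone and 11 shared with a chromosome 2 locus. Their median differences were -0.04 with SNP, 0.17 with cPTIO and -0.22 for SNP minus cPTIO, and 17 of the 22 were positive with cPTIO. limma called 1 of them in each comparison. The probe set for nad2, another complex I subunit, read 3.87, 3.73 and 3.74 in control, 4.65, 4.34 and 4.34 with SNP and 4.86, 4.25 and 4.90 with cPTIO, and it was called higher with cPTIO (0.89; limma adjusted p = 0.0284). The probe set shared by atp9, an ATP synthase subunit, and AT2G07671 was lower with SNP than in control (-0.99; limma adjusted p = 0.0491) and than with cPTIO (-1.32; limma adjusted p = 0.0267). On this atp9 set the 3 SNP arrays, at 6.97 to 7.07, were below all 6 others.

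The chloroplast genome, the other organelle genome of the plant cell, is set beside these values. With cPTIO against control 23 of 77 chloroplast probe sets were called lower and 0 higher, with a median of -0.41, against 0 lower and 1 higher among the 48 mitochondrial members and a median of 0.12. With SNP against control 4 of 77 were called lower, with a median of -0.17. Between SNP and cPTIO 3 were called higher with SNP, with a median of 0.43 against -0.11 for the mitochondrial members. The difference between both organelle sets was not tested, and the chloroplast sets were brighter, with a median level of 8.63. Of the 69 chloroplast sets above the plant median 33.3% were called with cPTIO against control, against 10.8% of plant probe sets there. With SNP against control these shares were 5.8% and 9.34%, and between SNP and cPTIO 4.35% and 5.38%. Of the 10 members above that median 0 were called with cPTIO against control.

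**Figure D4:**
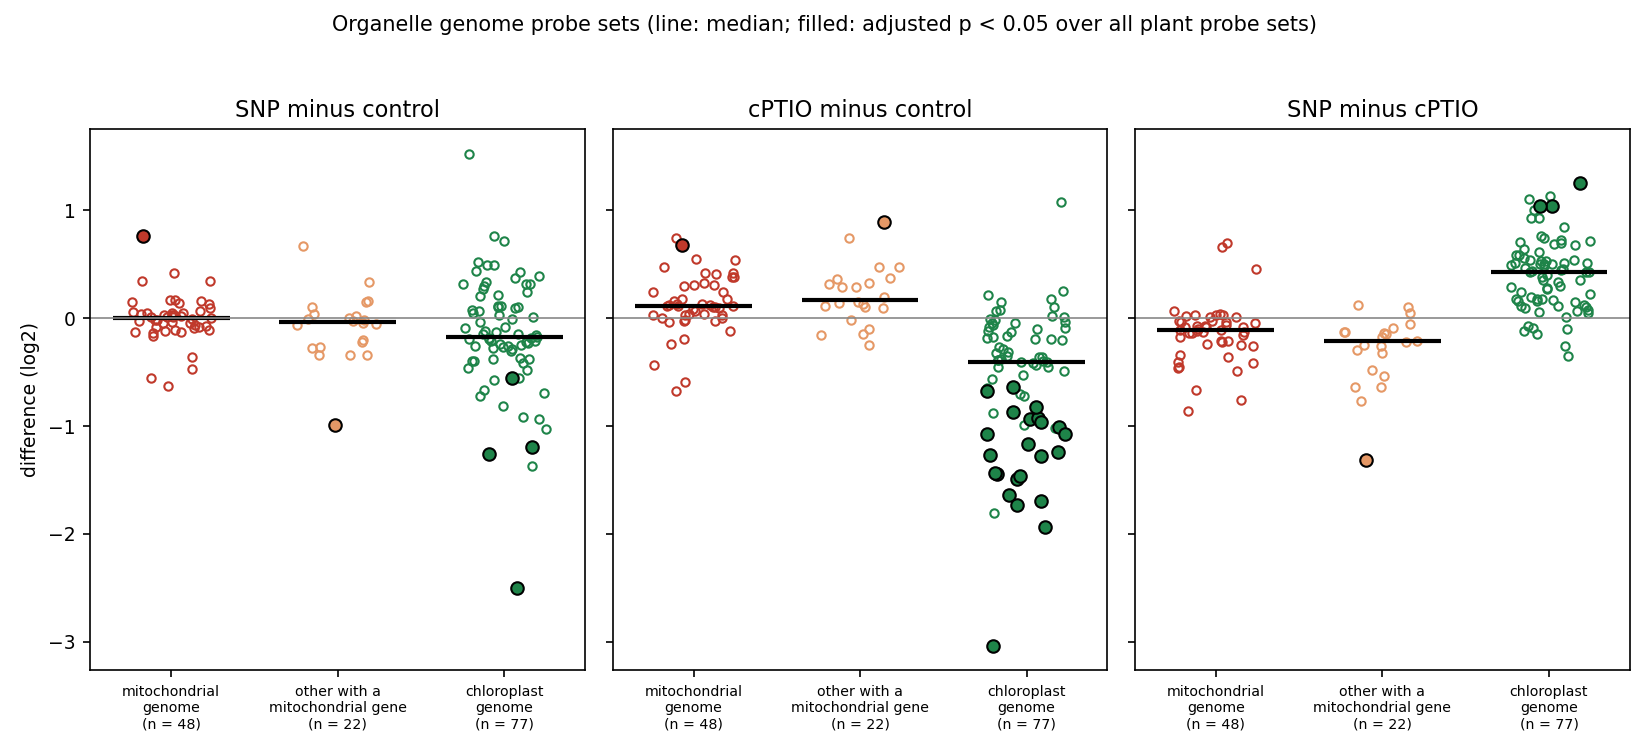
Log2 differences of the mitochondrial genome probe sets (n = 48), the other probe sets with a mitochondrial gene (n = 22) and the chloroplast genome probe sets (n = 77) in the 3 comparisons (y axes, log2). Each point is a probe set, lines are medians and filled points have an adjusted p under 0.05. With cPTIO the chloroplast median is -0.41 and that of the mitochondrial sets is 0.12.

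Nuclear genes of the respiratory chain and ATP synthase were measured by 18 probe sets, of which 2 are for complex I and 3 for complex IV, the complexes with named members. They cover only part of the listed nuclear genes. Complex II, with 4 of the 18, has no gene in the RefSeq mitochondrial genome used here. With SNP against control 0 of the 18 were called by limma and 3 had an unadjusted p under 0.05, and between SNP and cPTIO the counts were again 0 and 3. With cPTIO against control 1 rose and 2 fell, and 5 had an unadjusted p under 0.05. Of the 18, 17 lay above the median level. Of all plant probe sets there, 9.34%, 5.38% and 10.8% were called in these 3 comparisons, in the order given. At an unadjusted p under 0.05 the shares were 30.1%, 26% and 35.1%. The counts are therefore not a result about the nuclear genes as a group. AT5G47030, listed under ATP synthase, rose by 0.61 on the log2 scale (limma adjusted p = 0.0334). FRO1, a complex I subunit, fell by 0.47 (limma adjusted p = 0.0365), and SDH2-2, the iron-sulphur subunit of complex II, fell by 0.70 (limma adjusted p = 0.0296). NDB2, 1 of 5 alternative NAD(P)H dehydrogenases measured, was lower with SNP than with cPTIO (-0.54; limma adjusted p = 0.0394). The AT5G15700 probe set, for an organelle RNA polymerase (RPOTmp), had differences of -0.38 and -0.13 from control and was not called (limma adjusted p = 0.203 and 0.645).

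Of the marker lists, 1 of 5 green shoot, 2 of 5 root and 0 of 4 seed genes were matched to a probe set. Both organs of whole seedlings were represented, with mean log2 levels of 13.05 for RCA (Rubisco activase) and 12.12 for PYK10 (a root beta-glucosidase). These genes were not called in any comparison. The root hair expansin EXPA7 was lower with SNP (-0.98; limma adjusted p = 0.0192), and its part in the members' values was not tested. Of the array controls, BioC was higher on all treated arrays. BioC, a hybridisation spike-in, read 6.32 ± 0.18 in control, 8.53 ± 0.09 with SNP and 8.36 ± 0.51 with cPTIO (log2, SD, n = 3), while the poly-A spike-ins read 3.80 ± 0.09, 4.37 ± 0.38 and 4.30 ± 0.40, with cPTIO replicate 2 inside the control range. The mean 3′ minus 5′ difference of actin and GAPDH was 1.46 ± 0.12, 1.54 ± 0.10 and 1.37 ± 0.03, with overlapping arrays. With the poly-A level as a covariate nad4 with SNP was 0.49 (limma adjusted p = 0.228) and nad7 with cPTIO 0.57 (limma adjusted p = 0.178), and neither was called.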

How the data were processed

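The deposited table holds log2 values, 1 per probe set and array, for 9 arrays. For the deposited log2 values, RMA and limma stand in the submitters' processing notes, both without a version. RMA quantile-normalises arrays, so a shift shared by most transcripts is largely removed. Precision is limited by the number of arrays.

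The 64 AFFX control sets were set aside and limma 3.58.1 (R 4.3.3) was fitted to 22746 plant probe sets on the 9 arrays together, with a term for group and no other. Tests were two-sided with Benjamini-Hochberg adjustment within each comparison. The script was tested on simulated data. Figures used Python 3.11.15 and matplotlib 3.10.9.

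Genes were named through GEO's platform annotation, updated to RefSeq mitochondrial symbols for 5 members. Named with every array were members that were called, those with the lowest F p in each role group, and those with the largest difference in each direction and comparison. Members, lists and alternatives were chosen with earlier results of these data known. The lists also held alternative oxidases, seed markers and further shoot and root markers that matched no probe set annotated to a single gene. The same held for some nuclear genes of complexes I, III and IV, ATP synthase, alternative NAD(P)H dehydrogenases and organelle RNA polymerases. None of these was analysed here.

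Same-numbered SNP and cPTIO arrays deviated together from their group means over all plant probe sets (r = 0.257, 0.305 and 0.417). Over the members they did not (r = 0.00787, -0.0708 and -0.0816). Over all plant probe sets r was 0.127, -0.0174 and 0.0849 for SNP with control, and 0.0621, 0.0564 and -0.00711 for cPTIO with control. The main fit paired no arrays, and the replicate number entered only in the replicate block, an alternative. Array centring, fewer groups, array weights, an intensity trend, a dim filter, suffix, left-out arrays, the replicate block and the poly-A level were the alternatives.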

Additional observations from a re-analysis of the deposited data

Results flagged for a closer look

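The BioC hybridisation controls, which are outside the plant probe sets, were higher on the 6 treated arrays than on the 3 control arrays by a mean of 2.12 on the log2 scale. The treated arrays ran from 7.77 to 8.71 and the control arrays from 6.14 to 6.50. These ranges do not overlap, so differences that go with BioC cannot be told apart from those between treated and control arrays. The part of this in the mitochondrial values was not tested.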

How the results depend on the processing

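Both single calls were fragile. The count of members called in SNP against control was 1, and it was 3 with array weights, 0 with the poly-A level as a covariate, 0 without SNP and cPTIO replicate 3 together (nad4 adjusted p = 0.0542, limma), and 0 to 1 when single arrays were left out. In cPTIO against control it was 1, and it was 0 when only those groups were fitted, 2 with array weights, 0 with the poly-A covariate and 0 to 5 when single arrays were left out, with 5 without cPTIO replicate 2 and 2 without SNP replicate 1. Between SNP and cPTIO it was 0, and it was 1 with array weights, 1 with the poly-A covariate and 0 to 3 when single arrays were left out, with 3 without cPTIO replicate 2. For these settings the share of all plant probe sets called is given only without cPTIO replicate 3, further above. That share can move with the setting, so these counts are not read as results about the members. Among the 10 members above the plant median the median difference moved to -0.11 with SNP and 0.22 with cPTIO, and the cPTIO call was AT2G07751, lower (limma adjusted p = 0.0499), since nad7 was not tested there. With the poly-A covariate the SNP median was -0.10. The replicate block left the counts at 1, 1 and 0 over all 9 arrays and at 0 for the SNP and cPTIO arrays alone, and changed no call. The F-test called 0 to 5 members when single arrays were left out, with 5 (background 9.59%) without cPTIO replicate 2 and 2 (15.6%) without cPTIO replicate 3, and the background ran from 3.27% without control replicate 2 to 15.6%. Of 410 recomputed differences of the named members, 387 gave the same call, 12 lost one, 11 gained one, and no called value changed sign. The causes were not tested. Low signal limits most members, since no detection calls were used.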
